A study of Mus musculus with 15 samples.

Results

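The lineage contrast that underlies this study is that between 005, a mouse glioma stem cell line, and MBMEC, mouse brain microvascular endothelial cells. It takes in 6 of the 15 RNA sequencing libraries of the series, 3 of 005 and 3 of MBMEC, chosen by their labels alone. The other 9 libraries are of 005-derived cells in endothelial medium and entered only 1 alternative fit, so no cell in the comparison had met that medium for tumour-derived endothelial cells. Both cell types are labelled as C57BL/6, and neither was treated. The 005 cells carried GFP and grew in stem cell medium without serum. The MBMECs were bought from a commercial supplier and grew in a complete medium with serum. The oxygen level was not given for either group. Cell type, source, medium and transformation therefore go together in every value below and cannot be told apart. The labels do not say whether the 3 replicates of a group were separate cultures, so the p-values measure the spread between these libraries, which may be technical. Replicate 3 of 005 stood apart: the mean chi-square of its counts was 11.4 and 11.2 set against replicates 1 and 2, which gave 2.15 between themselves.

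Neural stem cells and the glioma cells that resemble them are held in an undifferentiated, dividing state by transcription factors of the SOX, bHLH and POU families, and they give rise to astrocytes, oligodendrocytes and neurons. Endothelial cells line blood vessels and come from mesoderm. Their identity rests on ETS factors and on the SOXF group (Sox7, Sox17 and Sox18), which switch on the VEGF receptors, VE-cadherin and claudin-5, and in the brain Wnt signals add the transporters of the blood-brain barrier.

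Levels are scaled counts (CPM) after TMM scaling, a scaling that evens out differences in library composition. Pairs of values are means ± SD over 3 libraries. Differences are log2 fold changes, 005 minus MBMEC, with their standard error, from edgeR's quasi-likelihood test with Benjamini-Hochberg adjustment over all genes tested. A gene was called higher or lower when the adjusted p was under 0.05 and the change was more than 1 on the log2 scale, which is a fold of 2. The 005 libraries held 12732819 to 12972933 counts and the MBMEC libraries 15617686 to 17093061, and 15992 of the 49585 genes in the table had enough counts to be tested.

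The 2 cell types differed widely. Of the 15992 genes, 4048 were higher in 005 (25.3% of those tested) and 2983 were lower (18.7%), so 44% were called. The counts of list members called, given below, are to be read against these shares. The libraries of the groups did not overlap for 12996 genes (81.3%), the background for each gene said not to overlap. Another 7059 genes (44.1%) had a 95% interval that lay wholly within a fold of 2, and 1902 were neither called nor placed within that range. The median change over all genes was 0.09. Scaling by plain totals moved that median by 0.21, and the changes below are to be read against it. The genes higher in 005 took 21.5% ± 0.229 of the counts of a 005 library and 3.99% ± 0.0669 of an MBMEC library. The genes lower in 005 took 7.51% ± 0.103 of a 005 library and 32% ± 0.179 of an MBMEC library. Many calls were close to all or nothing, since 941 of the higher genes had no count in any MBMEC library and 198 of the lower genes had none in any 005 library. For those a fold is given as a lower bound, taken as if the empty group had 3 counts in all, and it covers counting error only, as do the counting intervals given for genes with 1 to 3 counts.

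**Figure D1:**
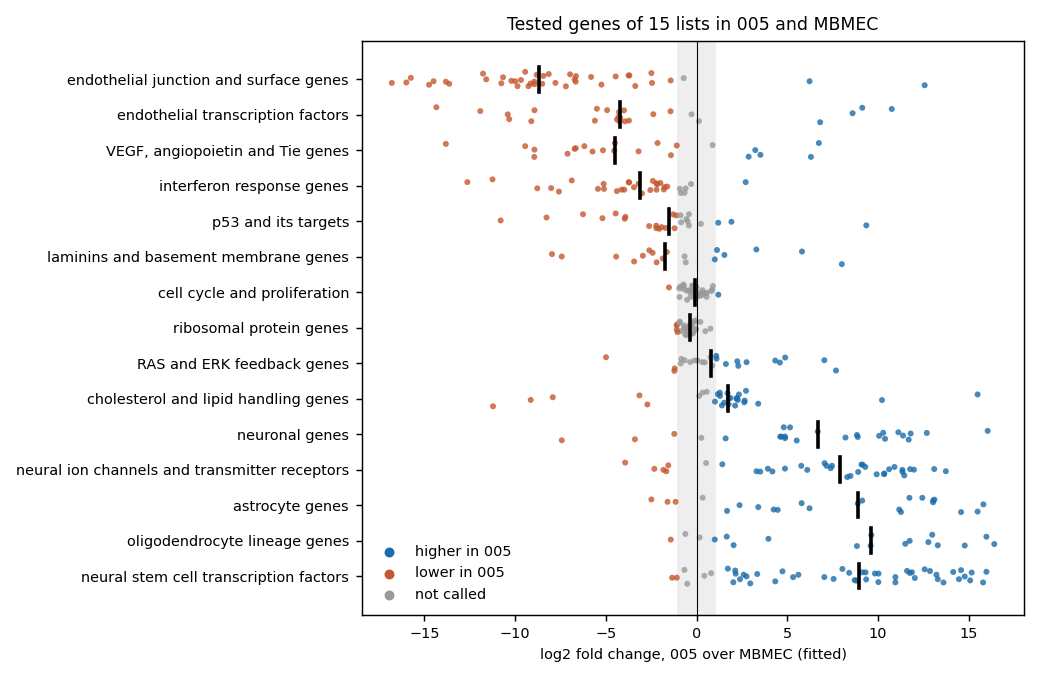
Log2 fold changes, 005 minus MBMEC, of the tested members of 15 gene lists (one dot a gene, coloured by call, black bar at the list's median, grey band within a fold of 2). Neural stem cell transcription factors sit mostly far to the right (median 8.97), endothelial junction and surface genes far to the left (median -8.66), and cell cycle genes inside the band (median -0.11).

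The 15 largest rises in 005 included genes of neural progenitors and of glial cells. Igfbp2, an IGF binding protein, had 879, 902 and 1203 CPM in the 3 libraries of 005 and no counts in MBMEC, at least 14987-fold higher. Gpm6b, a membrane glycoprotein of neural cells, was at least 11389-fold higher and the microtubule protein Map2 at least 8859-fold. Then came Olig2 (at least 8429-fold), the glutamate transporter Slc1a3 (7519-fold), the POU factor Pou3f3 (7423-fold), the neuronal ubiquitin ligase Trim9 (7365-fold), the heparin-binding growth factor Ptn (6672-fold), the brain fatty acid binding protein Fabp7 (6024-fold), Sox11 (4801-fold), Sox2 (4537-fold), the ganglioside GD3 synthase St8sia1 (4248-fold) and the axonal motor Kif1a (4101-fold), all of them lower bounds. Ptprz1, a receptor phosphatase that binds pleiotrophin, the product of Ptn, had 969 ± 157 CPM in 005 and 0.0210 ± 0.0364 CPM in MBMEC, 43799.6-fold (95% counting interval 7861 to 1730030.0) higher in 005. The last of the 15 largest rises was Moxd1, a monooxygenase-like protein, at least 3808-fold higher. Apart from the single count of Ptprz1, none of the 15 had a count in any MBMEC library.

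The 15 largest falls included genes that mark vessels. Cldn5, the claudin of endothelial tight junctions, had no counts in 005 and 1004, 913 and 1049 CPM in the 3 libraries of MBMEC, at least 13646-fold lower. Cdh5, which encodes VE-cadherin, had 0, 0.0732 and 0 CPM in 005 and 2121, 2210.1 and 2119 CPM in MBMEC, 89024-fold (95% counting interval 15978 to 3516290.0) higher in MBMEC. The others with no counts in 005 were the protease inhibitor Ctla2a (at least 11540-fold lower), Plac8 (11281-fold), the hyaluronan receptor Lyve1 (6597-fold), the annexin Anxa3 (6462-fold), the sialomucin Emcn (3286-fold), the vascular guidance receptor Robo4 (2763-fold), the lipid phosphatase Inpp5d (2741-fold), Hoxb8 (2724-fold), Sox17 (2487-fold), the chitinase-like Chil5 (2374-fold), the adenylyl cyclase Adcy4 (2010-fold) and the leukotriene C4 synthase Ltc4s (1993-fold). Col8a1, a collagen of vessel walls, had 0.0239 ± 0.0414 CPM in 005 and 494 ± 7.80 CPM in MBMEC, 20432-fold (95% counting interval 3667 to 807040.0) higher in MBMEC. A ranking by fold change favours genes at or near 0 in one group, and the genes at both ends were of that kind.

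Of the 54 listed transcription factors of neural stem cells, 44 were higher in 005 and 2 lower among 50 tested, with a median change of 8.97, or 7.06 with genes that have no counts in a group set at their lower bound. Sox2, which maintains neural stem cells, had 304, 286 and 313 CPM in the 3 libraries of 005 and no counts in MBMEC. Olig2, a bHLH factor of oligodendrocyte progenitors and glioma stem cells, had 529, 529 and 619.8 CPM in 005 and again no counts in MBMEC. The 3 libraries of 005 lay close to each other for both factors and far from the MBMEC libraries. Olig1, its neighbour in the genome, had 869 ± 78.7 CPM in 005 and 0.0230 ± 0.0399 CPM in MBMEC. Sox9, which drives glial fate, had 212 ± 7.63 CPM in 005 and no counts in MBMEC. Other abundant members with no counts in MBMEC were Sall3 (196 ± 11 CPM in 005), Sox8 (157 ± 1.58 CPM in 005), Nkx2-2 (87.3 ± 5.33 CPM in 005) and Npas3 (82.9 ± 1.64 CPM in 005). Tcf4 (2.03 ± 0.10, adjusted p 7.35e-10) and Zeb1 (2.13 ± 0.06, adjusted p 6e-12), E-box binding factors that both cell types expressed, rose by smaller folds. The 2 members that fell were Gli3, a mediator of hedgehog signals (7.60 ± 1.58 CPM in 005 and 19.4 ± 2.77 CPM in MBMEC), and the zinc finger factor Zfp423 (25 ± 2.40 CPM in 005 and 53.4 ± 3.54 CPM in MBMEC). Sox4, Hes1, Nfib and Nkx6-2 were not called, and Sox10, Otx2, Zic1 and Gli1 had too few counts to test.

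The markers used for neural and glioma stem cells were less one-sided, with 21 of 30 tested higher and 3 lower (median 2.98). Nes, the intermediate filament nestin, was present in both cell types, with 923 ± 109.6 CPM in 005 and 242 ± 1.63 CPM in MBMEC. The groups did not overlap, and the change was 1.93 ± 0.08 (adjusted p 2.31e-10). Prom1, which encodes CD133, had 25.8 ± 2.74 CPM in 005 and 10.3 ± 0.782 CPM in MBMEC (1.31 ± 0.12, adjusted p 4.53e-07). The RNA-binding protein Msi1 had 93.3 ± 2.21 CPM in 005 and 0.327 ± 0.157 CPM in MBMEC and Fabp7 had 399.6 ± 68.9 CPM in 005 and no counts in MBMEC. The marker that is a receptor for hyaluronan, Cd44, was not called at 77.3 ± 7.09 CPM in 005 and 124 ± 4.45 CPM in MBMEC, and Itga6, which endothelial cells share, fell (-1.42 ± 0.06, adjusted p 3.5e-10). Fut4 and Id1 were the other 2 that fell. Most of these markers were thus higher in 005 than in MBMEC, and some were also expressed by MBMEC. A comparison with endothelial cells cannot tell a glioma stem cell from other neural cells.

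In the oligodendrocyte list 15 of 18 tested members were higher and 1 lower (median 9.62, or 7.73 at the bounds, 5.09 with a count minimum of 1 and 4.68 in DESeq2). Pdgfra, the receptor of oligodendrocyte progenitors, had 39.7 ± 4.13 CPM in 005 and 12.5 ± 0.751 CPM in MBMEC, and Cspg4, which encodes NG2, had 89.6 ± 16.8 CPM in 005 and 0.0224 ± 0.0389 CPM in MBMEC. Sox10, which marks the whole lineage, was at 0.314 ± 0.110 CPM in 005 and no counts in MBMEC and was not tested. The myelin genes Mbp, Mag, Mobp and Mog averaged under 1 CPM in both groups, and Mag and Mobp had no counts at all. The orphan receptor Gpr17 was the one that fell, with 2.29 ± 0.469 CPM in 005 and 6.17 ± 1.59 CPM in MBMEC.

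Astrocyte and neuronal genes were mostly higher in 005. Of 23 astrocyte genes tested, 19 were higher and 3 lower (median 8.89, or 6.23 at the bounds). Gfap, the filament of mature astrocytes, reached 3.66, 2.41 and 5.80 CPM in 005, against 0.189, 0.0673 and 0.345 CPM in MBMEC. The water channel Aqp4 had 4.85 ± 0.739 CPM in 005 and no counts in MBMEC, the folate enzyme Aldh1l1 had 4.16 ± 0.534 CPM in 005 and 0.0685 ± 0.0690 CPM in MBMEC, and the glutamate transporter Slc1a2 had 19.7, 19.4 and 20.9 CPM in the 3 libraries of 005 and no counts in MBMEC. All of these were far under Slc1a3 (499 ± 9.03 CPM in 005 and no counts in MBMEC), Sparcl1 (631 ± 16.8 CPM in 005 and 0.0644 ± 0.0630 CPM in MBMEC) and Aldoc (192 ± 6.31 CPM in 005 and 0.397 ± 0.0482 CPM in MBMEC) in CPM, a scale that does not correct for transcript length. The 3 that fell were the gap junction gene Gja1, the bicarbonate transporter Slc4a4 and S100b. Of 25 neuronal genes tested, 21 were higher and 3 lower (median 6.68). Map2 had 588 ± 69.2 CPM in 005 and no counts in MBMEC and Dcx, of migrating neuroblasts, had 57.3 ± 5.43 CPM in 005 and no counts in MBMEC. Tubb3 had 31.2 ± 2.21 CPM in 005 and 1.10 ± 0.353 CPM in MBMEC, whereas Rbfox3, of mature neurons, had 1.09 ± 0.0780 CPM in 005 and 0.0210 ± 0.0364 CPM in MBMEC and Stmn2 had 0.0239 ± 0.0414 CPM in 005 and no counts in MBMEC. Gad2, which makes GABA, went the other way with 0.362 ± 0.193 CPM in 005 and 63.9 ± 1.42 CPM in MBMEC, as did the neurofilament genes Nefl and Nefm. Several genes stand in more than one of these lists (Fabp7, Slc1a3, Pdgfra and Cspg4 among them), so the counts are not independent of each other.

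On the endothelial side, 19 of 25 tested transcription factors were lower in 005 and 4 were higher (median -4.24). Erg, the ETS factor that holds endothelial identity, had 0.0717, 0.219 and 0.217 CPM in 005 and 229, 224 and 233 CPM in MBMEC. Its libraries did not overlap between the groups, and the change was -10.33 ± 0.14 (adjusted p 1.63e-14). Fli1, its closest relative, was not as low in 005, with 4.15 ± 0.334 CPM in 005 and 203 ± 12.8 CPM in MBMEC (-5.61 ± 0.10, adjusted p 6.25e-14). Sox17 had no counts in 005 and 180.1 ± 11.8 CPM in MBMEC, and Sox18 had 0.146 ± 0.194 CPM in 005 and 209 ± 13.1 CPM in MBMEC. Bcl6b, a repressor enriched in endothelium, had 16.9 ± 1.95 CPM in 005 and 763 ± 3.42 CPM in MBMEC, and the hypoxia factor Epas1 had 17.6 ± 0.848 CPM in 005 and 232 ± 14.9 CPM in MBMEC. The flow-responsive factors Klf2 (11.9 ± 0.928 CPM in 005 and 235 ± 7.64 CPM in MBMEC) and Klf4 (2.95 ± 0.785 CPM in 005 and 61.7 ± 2.91 CPM in MBMEC) were lower as well. Of the 4 that rose, Hey1 is a Notch target also used by neural progenitors, and Lef1, Tbx3 and Foxl2 had no counts in MBMEC. Foxf2 (0.410 ± 0.252 CPM in 005 and no counts in MBMEC) and Foxq1, factors of brain endothelium, were under 1 CPM in 005 and at 0 in MBMEC.

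Junction and surface genes of endothelium were almost all lower, with 39 of 42 tested members lower, 2 higher and a median of -8.66 (-8.48 at the bounds). Pecam1, the CD31 antigen, had 1.00, 1.46 and 1.67 CPM in 005 and 1269, 1302 and 1321 CPM in MBMEC. Cd34 had 0.919 ± 0.263 CPM in 005 and 1509 ± 45.5 CPM in MBMEC, the angiopoietin co-receptor Tie1 had 0.0483 ± 0.0837 CPM in 005 and 824 ± 14.9 CPM in MBMEC, and Nos3, the endothelial nitric oxide synthase, had 1.21 ± 0.651 CPM in 005 and 2114 ± 32.8 CPM in MBMEC. All 4 were barely detected in 005, and the 2 counts of Tie1 there gave a level 17069-fold (95% counting interval 4725 to 140946) higher in MBMEC. The anticoagulant receptors Thbd (0.193 ± 0.0433 CPM in 005 and 706 ± 16.5 CPM in MBMEC) and Procr (1.93 ± 0.450 CPM in 005 and 1194 ± 58.1 CPM in MBMEC) followed the same pattern. Cd93 (41.9 ± 2.01 CPM in 005 and 563 ± 16.6 CPM in MBMEC), Plvap (37.9 ± 8.28 CPM in 005 and 395 ± 15.5 CPM in MBMEC) and Mcam (18.7 ± 2.20 CPM in 005 and 411 ± 12.5 CPM in MBMEC) had levels in 005 that were well above 0. Jam2 was the only tested member not called (-0.71 ± 0.08), and Cgn and Prox1 were higher in 005. Prox1 is a factor of both lymphatic vessels and neural progenitors, and it had 52.8 ± 5.58 CPM in 005 and no counts in MBMEC.

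The general endothelial label of the MBMECs was met by their markers. Of the 35 blood-brain barrier genes in the table, 15 averaged under 1 CPM in MBMEC and 16 in 005. The share under 1 CPM over all genes was not counted. In the blood-brain barrier list 10 of 24 tested genes were lower in 005 and 8 higher (median -0.35, or -0.18 without MBMEC replicate 1, -0.61 without 005 replicate 1 or 2, -0.62 with all 15 libraries and -0.13 with plain totals), and 11 members were too low to test. Mfsd2a, the lipid transporter of brain endothelium, had 27.5, 24.2 and 25.1 CPM in 005 and 0.126, 0.135 and 0 CPM in MBMEC, so it was higher in the glioma cells (8.04 ± 0.28, adjusted p 3.9e-11). Slc2a1, the glucose transporter of the barrier, had 30.0 ± 2.64 CPM in 005 and 121 ± 5.30 CPM in MBMEC. Abcb1a, the P-glycoprotein gene, had 0.145 ± 0.251 CPM in 005 and 1.21 ± 0.409 CPM in MBMEC, and the efflux pump Abcg2 had 50.7 ± 1.38 CPM in 005 and 36.9 ± 2.36 CPM in MBMEC and was not called. Slco1a4, Slc22a8 and Slc38a5 had no counts in either group, and Slco1c1 had none in MBMEC. The Wnt target genes Axin2 and Lef1 also were expressed in 005 only (Axin2 32.6 ± 3.44 CPM in 005 and Lef1 15 ± 2.07 CPM in 005, with no counts in MBMEC). Among the Wnt receptor complex that serves brain endothelium, Fzd4 (12.5 ± 0.675 CPM in 005 and 336 ± 12.1 CPM in MBMEC), Adgra2 (37.7 ± 4.59 CPM in 005 and 465 ± 7.59 CPM in MBMEC) and Lrp5 (93.9 ± 6.90 CPM in 005 and 420.4 ± 6.10 CPM in MBMEC) were lower in 005, whereas Tspan12 was higher (268 ± 14.6 CPM in 005 and 23.2 ± 1.77 CPM in MBMEC). Lyve1 and Stab1, genes of lymphatic and sinusoidal endothelium, and Plvap, of fenestrated vessels, were expressed in MBMEC at 480.2, 494 and 459 CPM, 554, 602 and 577 CPM and 377, 401 and 406 CPM. In the same list, the lymphatic factor Prox1 had no counts in MBMEC, and the tight junction gene Cldn5 had 1004, 913 and 1049 CPM there. The kind of vessel from which the MBMECs came was not tested.

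The promoters of the 2 sets were described by their CpG content, a feature that played no part in the calls. RefSeq promoters on GRCm38.p6, from 250 bases before to 50 after the start, could be matched to 10744 of 15984 tested genes. Each gene had 1 window, at its most upstream listed start, and which start these cells used was not measured. A promoter was called CpG-dense when its ratio of observed to expected CpG was at least 0.6 and its GC content at least 50%. That held for 61.5% of the genes higher in 005, 52.6% of those lower and 75.9% of those not called, against 68.2% of all. With called genes limited to those that reached 10 CPM on their higher side, the shares were 69.4% for the higher genes and 59.7% for the lower ones. The gap was wide among genes with no counts on the other side: 53.7% of the 618 matched genes with no MBMEC counts were CpG-dense, against 11.2% of the 116 matched genes with no 005 counts. For some lists the matched members called in either direction were counted together. CpG-dense promoters made up 72.7% of 33 neural stem cell transcription factors and 54.5% of 11 oligodendrocyte genes. They made up 69.2% of 13 endothelial transcription factors and 36% of 25 endothelial surface genes. These sets are small and can hold members that went against their list, so their shares do not compare the 2 sides. The ETS core motif CCGGAA, searched on both strands, was found in 16.2% of the higher, 20.6% of the lower and 34.1% of the uncalled promoters, against 27.3% of all. The SOX motif ACAAAG was found in 14.9%, 14.5% and 12.5%, in the same order, against 13.5% of all, and the AP-1 motif TGACTCA in 3.32%, 5.68% and 2.89%, against 3.49% of all. These matches are a description of the letters in the window and not of binding sites.

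The range is shown by 6 promoters, chosen after their values were seen, with each CG pair in capitals. The first 2 are CpG-rich promoters of factors at 0 in MBMEC, the next 2 are CpG-poor promoters of genes at 0 in 005, and the last 2 run against that pattern.
Olig2, chr16:91225300-91225599, + strand: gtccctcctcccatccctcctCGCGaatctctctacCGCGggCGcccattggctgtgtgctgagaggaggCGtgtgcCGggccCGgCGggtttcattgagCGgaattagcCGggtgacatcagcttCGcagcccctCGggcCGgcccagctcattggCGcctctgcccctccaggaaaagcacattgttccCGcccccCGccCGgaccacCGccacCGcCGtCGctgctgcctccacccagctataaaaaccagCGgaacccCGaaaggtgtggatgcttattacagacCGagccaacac
Sox2, chr3:34649745-34650044, + strand: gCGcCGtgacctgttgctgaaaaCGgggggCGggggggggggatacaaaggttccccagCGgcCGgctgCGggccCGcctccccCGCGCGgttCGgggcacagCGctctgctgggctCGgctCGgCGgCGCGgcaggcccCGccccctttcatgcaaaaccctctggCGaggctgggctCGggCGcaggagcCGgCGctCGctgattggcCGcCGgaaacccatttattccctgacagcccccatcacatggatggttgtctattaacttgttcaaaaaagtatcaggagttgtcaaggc
Robo4, chr9:37401722-37402021, + strand: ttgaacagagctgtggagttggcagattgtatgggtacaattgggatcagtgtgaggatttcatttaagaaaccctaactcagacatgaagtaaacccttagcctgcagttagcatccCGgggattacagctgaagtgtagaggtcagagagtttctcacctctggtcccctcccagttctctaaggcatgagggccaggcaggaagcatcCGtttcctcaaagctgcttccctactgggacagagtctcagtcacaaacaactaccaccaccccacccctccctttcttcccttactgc
Emcn, chr3:137340828-137341127, + strand: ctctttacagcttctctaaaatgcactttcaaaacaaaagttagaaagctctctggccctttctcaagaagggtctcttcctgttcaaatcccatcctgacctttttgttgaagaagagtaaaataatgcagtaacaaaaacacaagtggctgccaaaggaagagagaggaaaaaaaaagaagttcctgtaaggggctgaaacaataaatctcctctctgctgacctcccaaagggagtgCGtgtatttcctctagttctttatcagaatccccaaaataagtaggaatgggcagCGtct
Erg, chr16:95586544-95586843, - strand: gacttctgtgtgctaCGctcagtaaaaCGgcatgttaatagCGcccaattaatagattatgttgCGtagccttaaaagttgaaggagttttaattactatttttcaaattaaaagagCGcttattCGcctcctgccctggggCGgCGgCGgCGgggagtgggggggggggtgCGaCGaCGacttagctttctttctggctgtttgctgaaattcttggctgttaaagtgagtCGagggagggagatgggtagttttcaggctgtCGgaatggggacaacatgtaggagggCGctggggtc
Fabp7, chr10:57784673-57784972, + strand: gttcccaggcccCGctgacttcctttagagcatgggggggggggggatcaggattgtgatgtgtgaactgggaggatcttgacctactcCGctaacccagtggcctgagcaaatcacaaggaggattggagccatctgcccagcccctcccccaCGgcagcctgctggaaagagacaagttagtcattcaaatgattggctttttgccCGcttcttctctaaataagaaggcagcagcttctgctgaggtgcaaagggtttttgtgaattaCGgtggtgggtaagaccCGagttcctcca
The Olig2 and Sox2 windows hold 25 and 27 CpGs, and those of Robo4 and Emcn hold 2 each. Erg, an endothelial gene, has 16 CpGs, while Fabp7, a gene of radial glia, has 6.

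In the SOX family 10 of 15 tested members were higher in 005 and 4 lower. The SOXB1 genes Sox1 (32.5 ± 2.17 CPM in 005 and no counts in MBMEC), Sox2 and Sox3 (9.06 ± 0.584 CPM in 005 and no counts in MBMEC), the SOXE genes Sox8 and Sox9 and the SOXD genes Sox5 and Sox6 were all higher in 005. The 4 that fell were the whole SOXF group and Sox13, which is also a SOXD gene, so that group was split. Sox7 had 0.215, 0 and 0 CPM in 005 and 45.8, 45.5 and 43.1 CPM in MBMEC, and Sox13 had 7.24 ± 1.07 CPM in 005 and 219 ± 3.97 CPM in MBMEC. Sox4 was the one tested member not called: it had 618, 614 and 587 CPM in 005 and 341, 364 and 338 CPM in MBMEC. Its groups did not overlap, but the change was only 0.80 ± 0.06. Levels per kilobase were taken over all exons that the GENCODE annotation lists for a gene, merged. That length can exceed the length of the transcript in use, so an order of genes by it is rough. On this scale Sox2 (146 CPM per kb) and Sox4 (126 CPM per kb) were the highest in 005, ahead of Sox9 (51.3) and Sox8 (50.4). In MBMEC the order was Sox18 (129 CPM per kb), Sox4 (72.5), Sox13 (50.8) and Sox17 (37.8).

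**Figure D2:**
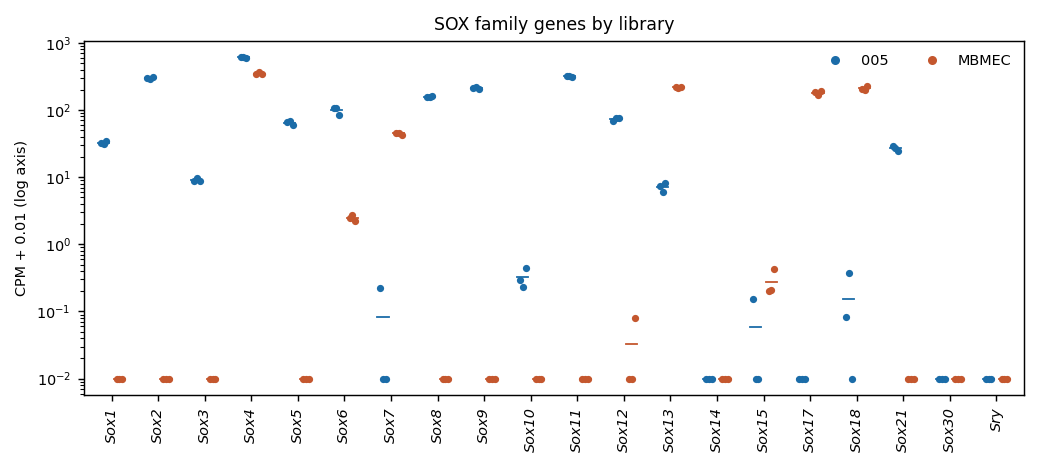
Level of each SOX gene in CPM (log axis, 0.01 added so that 0 can be drawn) in the 3 libraries of 005 and the 3 of MBMEC, one point a library. Sox1, Sox2, Sox3, Sox5, Sox8, Sox9, Sox11 and Sox21 lie on the floor in MBMEC, Sox17 lies on the floor in 005, and Sox4 is high in both.

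ETS genes went both ways. Of 17 tested, 6 were lower (35.3%) and 4 higher (23.5%) in 005, against 18.7% and 25.3% over all genes tested. The median was -0.22, which turned positive with a count minimum of 1 and in DESeq2. Ets2 had 32 ± 2.31 CPM in 005 and 592 ± 9.33 CPM in MBMEC, Ets1 had 69.2 ± 3.28 CPM in 005 and 187 ± 5.46 CPM in MBMEC, and Elk3 and Elf4 fell too. The PEA3 group, whose members are switched on by FGF and ERK signals, went the other way. Etv5 had 646, 639.7 and 727 CPM in 005 and 33.8, 33.4 and 32.4 CPM in MBMEC, Etv1 had 118 ± 22.7 CPM in 005 and 0.888 ± 0.116 CPM in MBMEC, and Etv4 had 185 ± 17 CPM in 005 and 27.4 ± 1.54 CPM in MBMEC. Erf, a repressor of the same family, rose by 1.16 ± 0.07 (adjusted p 1.45e-08).

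HOX genes, which set position along the body axis and are off in the forebrain, were expressed in both cell types but from different clusters. Over the 39 genes, 16 of 29 tested were higher in 005 and 12 lower. From the Hoxa cluster 9 genes were higher and none lower, and its summed level was 151 ± 5.89 CPM in 005 and 24 ± 2.2 CPM in MBMEC. Hoxa2 (2.03 ± 0.397 CPM in 005 and 0.699 ± 0.314 CPM in MBMEC), Hoxa3 (28.2 ± 0.809 CPM in 005 and 2.35 ± 0.200 CPM in MBMEC) and Hoxa4 (13.3 ± 1.22 CPM in 005 and 0.175 ± 0.0963 CPM in MBMEC) are examples. Hoxa7 just missed the call (0.96 ± 0.11). The Hoxb cluster was silent in 005, where all 10 genes were at 0, and summed to 417 ± 16.1 CPM in MBMEC, with Hoxb8 at 204, 184 and 204 CPM. The Hoxc cluster was the mirror image, with 48.1 ± 5.81 CPM in 005 and none of its 9 genes detected in MBMEC. The Hoxd cluster was shared: it summed to 69.5 ± 1.94 CPM in 005 and 308 ± 12.5 CPM in MBMEC. Hoxd8 was its most abundant member, with 32.1 ± 1.07 CPM in 005 and 201 ± 8.26 CPM in MBMEC, and Hoxd13 was the only one higher in 005 (15.7 ± 0.894 CPM in 005 and no counts in MBMEC). A pooled level over cells cannot show whether single 005 cells expressed Hoxa, Hoxc and Hoxd genes together, and in bulk RNA fewer expressing cells and less RNA per cell cannot be told apart.

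**Figure D3:**
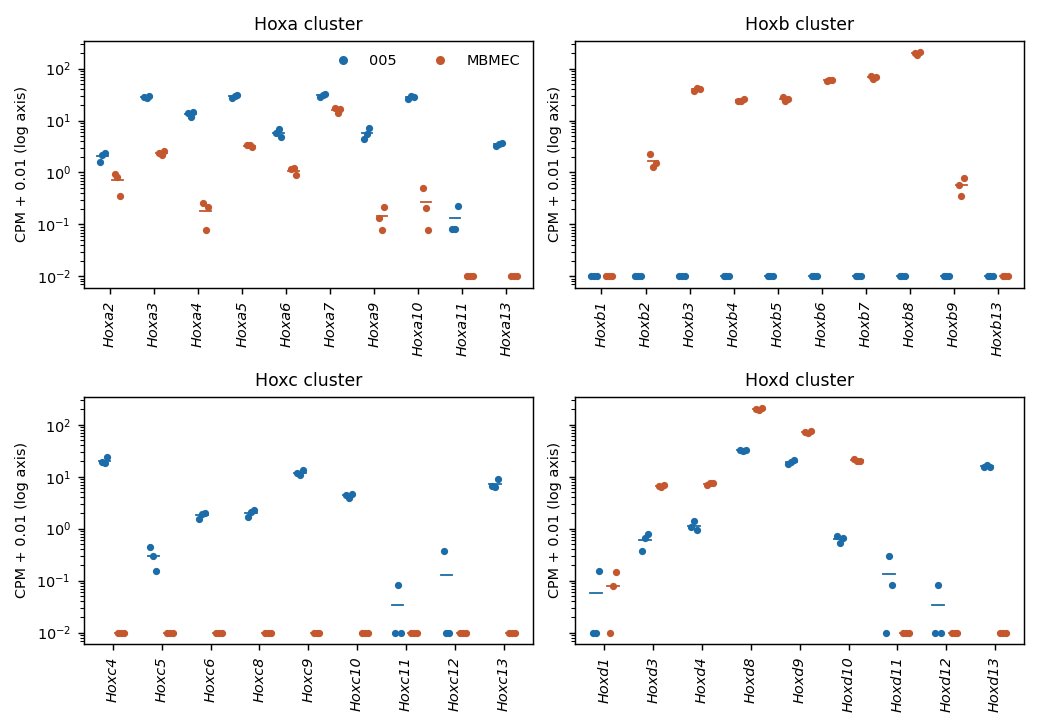
Levels of HOX genes in CPM (log axis, 0.01 added) by cluster, in the 3 libraries of 005 and the 3 of MBMEC. The Hoxb panel has points of MBMEC only above the floor, the Hoxc panel points of 005 only, and the Hoxa and Hoxd panels points of both.

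Genes of forebrain and midbrain position were expressed beside the HOX genes in 005. Of 22 tested, 16 were higher and 2 lower (median 6.60, or 5.55 at the bounds). Otx1, of the forebrain and midbrain, had 8.10, 9.36 and 11.1 CPM in the 3 libraries of 005 and 1.64, 0.606 and 1.38 CPM in those of MBMEC. Emx2, of the dorsal forebrain, had 17.3 ± 0.381 CPM in 005 and no counts in MBMEC, and the midbrain gene En2 had 25.1 ± 2.57 CPM in 005 and no counts in MBMEC, while Otx2 and Emx1 were near 0 in both. Meis2 and Pax2 were the 2 that fell, with Meis2 at 25.2 ± 1.5 CPM in 005 and 85.8 ± 2.07 CPM in MBMEC.

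Among VEGF and angiopoietin genes each VEGF and Tie receptor was lower in 005, and the ligands went both ways. Of 22 tested, 16 were lower in 005 and 5 higher (median -4.52). Vegfa had 214, 218 and 285 CPM in 005 and 24.7, 25.8 and 25.5 CPM in MBMEC, a change of 3.24 ± 0.11 (adjusted p 3.01e-11). Angpt2, a Tie2 ligand that destabilises vessels, was also higher in 005: it had 49.4, 52.4 and 76.4 CPM in 005 and 7.49, 8.49 and 8.35 CPM in MBMEC (2.87 ± 0.17, adjusted p 5.21e-09). The groups did not overlap for either ligand. Kdr, which encodes VEGFR2, had 1.15, 0.732 and 1.74 CPM in 005 and 587, 621 and 590.2 CPM in MBMEC (-8.95 ± 0.14, adjusted p 3.09e-14). Flt1, Flt4 and the angiopoietin receptor Tek were lower as well, Tek with 0.122 ± 0.211 CPM in 005 and 63.5 ± 2.49 CPM in MBMEC, as were the co-receptors Nrp1 and Nrp2. Among the other ligands Vegfb was not called (67.5 ± 10.6 CPM in 005 and 36.5 ± 2.94 CPM in MBMEC), Vegfc was too low to test, and Vegfd (0.433 ± 0.246 CPM in 005 and 1.16 ± 0.305 CPM in MBMEC) and Pgf (2.80 ± 0.730 CPM in 005 and 149.7 ± 9.30 CPM in MBMEC) were lower. The apelin gene Apln, a product of tip cells, was abundant in MBMEC, with 39.6 ± 4.25 CPM in 005 and 1415 ± 33.2 CPM in MBMEC, while its receptor Aplnr was at or near 0 in both.

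Several other genes that the study named gave smaller or no calls. Lama4, a laminin chain of vessel walls, had 61.8, 59.6 and 52.3 CPM in 005 and 27.4, 31 and 28.1 CPM in MBMEC. The groups did not overlap, and the change of 1.00 ± 0.09 (adjusted p 3.92e-07) lay on the threshold: the call was lost without 005 replicate 1 or 2, without MBMEC replicate 1 or 3 and with a count minimum of 1, at 0.96 to 0.98, and in the test against a fold of 2 (edgeR glmTreat, adjusted p 0.536). The immediate early factor Egr1 had 56 ± 8.55 CPM in 005 and 100.4 ± 5.99 CPM in MBMEC and was not called (-0.84 ± 0.10), and Fos had 26.7 ± 14.2 CPM in 005 and 18.3 ± 2.22 CPM in MBMEC (0.55 ± 0.27, adjusted p 0.0794). Egr3 and the serotonin transporter Slc6a4 had too few counts to test.

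In the Notch pathway 9 of 21 tested genes were higher (42.9%) and 5 lower (23.8%), against 25.3% and 18.7% over all genes tested. The median was 0.43, or 0.67 with all 15 libraries. Notch1 was alike (247 ± 22.4 CPM in 005 and 284 ± 20.3 CPM in MBMEC, 95% interval -0.37 to -0.03), and Notch2 rose moderately (1.38 ± 0.14, adjusted p 1.09e-06). Notch3, a receptor of neural and mural cells, had 82.8, 79.4 and 85.6 CPM in 005 and 0.756, 0.875 and 0.759 CPM in MBMEC, and Notch4, the endothelial receptor, had 1.00, 1.02 and 0.942 CPM in 005 and 310.1, 319.9 and 326 CPM in MBMEC. Of the ligands, Dll3 was higher (28.2 ± 3.20 CPM in 005 and 0.113 ± 0.103 CPM in MBMEC), Dll4 (0.605 ± 0.443 CPM in 005 and 81.3 ± 3.92 CPM in MBMEC) and Jag2 (5.04 ± 1.69 CPM in 005 and 23.2 ± 1.06 CPM in MBMEC) were lower, and Dll1 and Jag1 were not called. Among targets, Hes5 (17.3 ± 4.07 CPM in 005 and no counts in MBMEC) and Hey1 were higher in 005, and Nrarp was lower (50.7 ± 1.05 CPM in 005 and 372 ± 9.0 CPM in MBMEC).

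BMP and TGF-beta genes showed 12 higher and 13 lower of 31 tested (median -0.57, or -0.16 with a count minimum of 1 and -0.14 in DESeq2). The endothelial type I receptor Acvrl1 had 1.43 ± 0.520 CPM in 005 and 606 ± 18.3 CPM in MBMEC, and its co-receptor Eng had 0.726 ± 0.269 CPM in 005 and 267 ± 3.12 CPM in MBMEC. Bmpr1a, the type I receptor of most other tissues, was the reverse: it had 315, 328 and 266 CPM in 005 and 0.441, 0.202 and 0.276 CPM in MBMEC (9.90 ± 0.17, adjusted p 5.87e-14). Bmpr1b had 11.1 ± 0.404 CPM in 005 and no counts in MBMEC, and Bmpr2, the type II receptor that both use, rose by 1.21 ± 0.11 (adjusted p 6.04e-07). Bmp7 and Chrdl1, a ligand and an antagonist, had 55.3 ± 3.71 CPM in 005 and 82.4 ± 2.27 CPM in 005, and both were at 0 in MBMEC. Tgfb1 (1.30 ± 0.136 CPM in 005 and 206 ± 12.6 CPM in MBMEC) and the target Smad6 (0.531 ± 0.0371 CPM in 005 and 55.4 ± 3.63 CPM in MBMEC) were lower.

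Wnt genes leaned to 005, with 21 of 36 tested higher and 8 lower (median 1.70). Among ligands Wnt7a (29.8 ± 2.14 CPM in 005 and no counts in MBMEC) and Wnt7b (91.2 ± 20.4 CPM in 005 and 0.578 ± 0.0992 CPM in MBMEC), which in brain signal to endothelium, were higher. Wnt2b rose at low levels, and Wnt2, Wnt3 and Wnt3a were too low to test. The Frizzled receptors were exchanged. Fzd1 had 692, 693 and 705 CPM in 005 and 0.567, 0.471 and 0.276 CPM in MBMEC, and Fzd2, Fzd3, Fzd9 and Fzd10 rose with it, whereas Fzd4, Fzd5 and Fzd6 fell. Fzd7 was within a fold of 2 (35.6 ± 2.65 CPM in 005 and 41.1 ± 3.84 CPM in MBMEC). The target genes Axin2, Lef1 and Nkd1 were all at 0 in MBMEC, and Lgr6 was the reverse with no counts in 005 and 8.73 ± 0.405 CPM in MBMEC.

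Receptor tyrosine kinases were 22 higher and 13 lower of 39 tested (median 1.66). Egfr had 29.5 ± 0.501 CPM in 005 and 2.18 ± 0.735 CPM in MBMEC and Erbb4 had 8.14 ± 1.71 CPM in 005 and no counts in MBMEC, while Erbb2 fell (-1.48 ± 0.10, adjusted p 3.59e-08) and Erbb3 was too low to test. The collagen receptors Ddr1 (196 ± 13 CPM in 005 and 5.12 ± 0.439 CPM in MBMEC) and Ddr2 (282 ± 6.56 CPM in 005 and 9.07 ± 1.27 CPM in MBMEC) and the neurotrophin receptors Ntrk2 (60.4 ± 3.49 CPM in 005 and no counts in MBMEC) and Ntrk3 (73.6 ± 5.70 CPM in 005 and no counts in MBMEC) were among the most abundant of the risers. Fgfr1 was expressed in both and rose by 1.10 ± 0.07 (adjusted p 1.03e-08). Among those that fell were Met (2.37 ± 0.159 CPM in 005 and 90.5 ± 6.50 CPM in MBMEC), Mertk (6.13 ± 0.340 CPM in 005 and 112 ± 1.81 CPM in MBMEC), Epha2 (5.74 ± 1.90 CPM in 005 and 173 ± 5.96 CPM in MBMEC) and Ephb4, the receptor of venous endothelium (52.1 ± 0.724 CPM in 005 and 460.2 ± 12.9 CPM in MBMEC).

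Guidance genes had 21 higher and 17 lower of 47 tested (median 0.82). The ROBO receptors were exchanged: Robo1 had 31.5, 32.8 and 27.9 CPM in the 3 libraries of 005 and no counts in MBMEC, and Robo4 had no counts in 005 and 189, 205 and 208 CPM in MBMEC. Robo2 (3.50 ± 0.849 CPM in 005 and no counts in MBMEC) went with Robo1, and Robo3 (0.266 ± 0.112 CPM in 005 and 7.71 ± 1.28 CPM in MBMEC) with Robo4. The netrin receptors Dcc (11.9 ± 2.97 CPM in 005 and 0.0210 ± 0.0364 CPM in MBMEC), Unc5a and Unc5c were higher in 005, while Unc5b was not called (50.1 ± 3.19 CPM in 005 and 37.3 ± 2.73 CPM in MBMEC). Efnb2, the ephrin of arteries, had 16.2 ± 0.274 CPM in 005 and 123 ± 8.76 CPM in MBMEC, and Plxnd1, the semaphorin receptor of vessels, had 141 ± 15.6 CPM in 005 and 569.6 ± 11 CPM in MBMEC. Of the class A ephrins, Efna1 fell, Efna2 and Efna4 rose, and Efna3 was not called (3.69 ± 0.414 CPM in 005 and 4.17 ± 0.879 CPM in MBMEC).

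Of 30 collagen genes tested, 17 were higher and 6 lower in 005 (median 2.61, or 0.87 with a count minimum of 1 and 1.01 in DESeq2), but those that fell were abundant, so the summed level was 969 ± 16.9 CPM in 005 and 6065 ± 273 CPM in MBMEC. Col4a1, the main chain of basement membranes, had 226, 227 and 203 CPM in 005 and 2271, 2523 and 2339 CPM in MBMEC. Col4a2 had 68 ± 3.42 CPM in 005 and 1469 ± 79 CPM in MBMEC and Col18a1 had 172 ± 9.56 CPM in 005 and 1336 ± 41.3 CPM in MBMEC. Col4a5, another type IV chain, ran the other way with 56.7 ± 8.88 CPM in 005 and 7.92 ± 1.35 CPM in MBMEC. Col11a1 (131 ± 17.4 CPM in 005 and 0.715 ± 0.242 CPM in MBMEC) was the most abundant of those that rose. The fibrillar genes Col1a1, Col2a1 and Col3a1 were called higher at low levels (Col3a1 had 7.22 ± 0.0837 CPM in 005 and 0.384 ± 0.285 CPM in MBMEC), and Col1a2 was near 0 in both.

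Laminins and basement membrane genes were 6 higher and 10 lower of 18 tested (median -1.75). The nidogens were exchanged: Nid1 had 3.77 ± 0.645 CPM in 005 and 652 ± 47.5 CPM in MBMEC and Nid2 had 19.1 ± 0.790 CPM in 005 and 0.336 ± 0.147 CPM in MBMEC. Sparc, a collagen-binding protein, was among the most abundant transcripts of MBMEC, with 648 ± 57.7 CPM in 005 and 3471 ± 86.8 CPM in MBMEC. Lama5 fell (-2.20 ± 0.07, adjusted p 2.2e-11), Lama1 had 2.22 ± 0.528 CPM in 005 and no counts in MBMEC, Lama3 had no counts in 005 and 2.15 ± 0.544 CPM in MBMEC, and Lama2 was too low to test. Brain matrix genes were 15 higher and 1 lower of 22 tested (median 6.12, or 5.06 at the bounds). Brevican, encoded by Bcan, had 538, 556 and 620.0 CPM in 005 and 0.0630, 0 and 0.138 CPM in MBMEC, and neurocan, encoded by Ncan, had 429 ± 24.8 CPM in 005 and 0.0460 ± 0.0797 CPM in MBMEC. Vcan (232 ± 41.1 CPM in 005 and 1.31 ± 0.260 CPM in MBMEC) and Acan (1.04 ± 0.168 CPM in 005 and no counts in MBMEC) were higher too. Tnc, tenascin-C, which is often used as a glioma marker, was abundant in both cell types (726 ± 50.7 CPM in 005 and 616 ± 43.4 CPM in MBMEC) and was not called.

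Cadherins and protocadherins were 15 higher and 6 lower of 22 tested (median 4.66, or 3.80 at the bounds, 2.62 to 6.54 with a library left out, 2.57 with a count minimum of 1 and 2.59 in DESeq2). Their summed level went the other way, with 831 ± 53.4 CPM in 005 and 2961 ± 63.4 CPM in MBMEC. Against Cdh5 in MBMEC, 005 expressed Cdh4 (195 ± 2.64 CPM in 005 and no counts in MBMEC), Cdh2, which encodes N-cadherin (136 ± 28.6 CPM in 005 and 57.4 ± 6.28 CPM in MBMEC), Cdh20 (84.2 ± 4.01 CPM in 005 and no counts in MBMEC) and Cdh22 (48.5 ± 9.10 CPM in 005 and no counts in MBMEC), and Cdh1 and Cdh3 had no counts in either. Integrins were 4 higher and 8 lower of 18 tested (median -0.41, or -0.26 in DESeq2, -0.25 with all 15 libraries and -0.20 with plain totals). Itgb1 was alike (1232 ± 42.9 CPM in 005 and 1489.9 ± 37.3 CPM in MBMEC, 95% interval -0.39 to -0.16). The laminin-binding chains Itga3 (13.5 ± 1.89 CPM in 005 and 782 ± 22 CPM in MBMEC) and Itgb4 (0.944 ± 0.550 CPM in 005 and 319 ± 19.7 CPM in MBMEC) and Itgb3 (2.94 ± 0.385 CPM in 005 and 349 ± 2.90 CPM in MBMEC) fell, and Itgb8, of glial cells, rose (51.6 ± 17.6 CPM in 005 and no counts in MBMEC). Itga2 fell by a smaller fold, and Itga1 and Itga2b were not called. Claudins, connexins and tight junction genes were 4 higher and 10 lower of 17 tested (median -1.58, or -0.60 with a count minimum of 1 and -0.58 in DESeq2), and Cldn1, Cldn2, Cldn3 and Cldn4 were too low to test.

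Caveolae, the membrane pits that are dense in endothelium, had the genes of their coat lower in 005. Cav1 had 0.0717, 0.219 and 0.507 CPM in 005 and 1103, 1101 and 1069 CPM in MBMEC, and the cavin genes Ptrf (6.65 ± 0.963 CPM in 005 and 1565 ± 49.4 CPM in MBMEC), Sdpr (7.20 ± 0.757 CPM in 005 and 564 ± 28.1 CPM in MBMEC) and Prkcdbp (0.169 ± 0.0826 CPM in 005 and 247 ± 8.37 CPM in MBMEC) and the partner Ehd2 (26.2 ± 1.30 CPM in 005 and 1229 ± 40.2 CPM in MBMEC) went with it. In the list of intermediate filaments and caveolae 13 of 21 tested genes were lower and 3 higher (median -2.0, or -1.15 with a count minimum of 1 and -1.13 in DESeq2). Vim, vimentin, was abundant in both (2031 ± 55.1 CPM in 005 and 3806 ± 135 CPM in MBMEC) and was not called, Lmna fell (-4.32 ± 0.08, adjusted p 1.25e-13), and Des was near 0 in both.

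The machinery of division differed little between the 2 cell types. Of 39 proliferation genes, 37 were not called, 31 had an interval wholly within a fold of 2, and the median of -0.11 became 0.10 under plain totals. Mki67, the Ki-67 antigen, had 389, 392 and 337 CPM in 005 and 383, 409 and 336 CPM in MBMEC (95% interval -0.19 to 0.17). Top2a (0.58 ± 0.09), Pcna (0.28 ± 0.08) and Mcm2 (-0.06 ± 0.08) were within the range as well. The 2 calls were Hmgb2, which was higher (296 ± 3.84 CPM in 005 and 129 ± 7.29 CPM in MBMEC), and the thymidylate synthase Tyms, which was lower (42.1 ± 7.11 CPM in 005 and 121 ± 1.22 CPM in MBMEC). Without 005 replicate 1, or without 005 replicate 2, a second gene was called lower.

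Among 24 G1 genes 7 were higher (29.2%) and 3 lower (12.5%), near the shares of 25.3% and 18.7% over all genes (median 0.29, or 0.50 with plain totals). Ccnd1 was one of the most abundant transcripts of both cell types and was not called (2302 ± 269 CPM in 005 and 2946 ± 96.9 CPM in MBMEC). Ccnd2 had 985, 961 and 1082 CPM in 005 and 93.8, 83.3 and 90.2 CPM in MBMEC (3.50 ± 0.07, adjusted p 3.64e-13), and Ccnd3 fell (-1.20 ± 0.07, adjusted p 6.05e-09), as did its partner Cdk6 (32.2 ± 1.28 CPM in 005 and 106 ± 8.0 CPM in MBMEC). Per kilobase of merged exons Ccnd1, Ccnd2 and Ccnd3 stood at 489, 107 and 7.83 CPM per kb in 005 and at 626, 9.47 and 18 CPM per kb in MBMEC. Ccne1 was alike (27.9 ± 0.644 CPM in 005 and 28.9 ± 1.81 CPM in MBMEC). Myc rose (201 ± 6.12 CPM in 005 and 72.5 ± 5.62 CPM in MBMEC), and so did Mycn and Mycl at lower levels.

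Genes of the p53 pathway were mostly lower in 005, where 16 of 26 tested were lower and 3 higher (median -1.5). Trp53 itself had 56.4, 48.3 and 60.6 CPM in 005 and 206, 214 and 206 CPM in MBMEC (-1.92 ± 0.08, adjusted p 2.32e-10). Cdkn1a, the p21 inhibitor of cyclin-dependent kinases, had 26.8, 26.2 and 39.8 CPM in 005 and 476, 447 and 486 CPM in MBMEC (-3.92 ± 0.13, adjusted p 2.92e-11). The groups stood far apart for both genes. Mdm2 (80.1 ± 4.32 CPM in 005 and 332 ± 25.9 CPM in MBMEC), Bax (37 ± 1.79 CPM in 005 and 173 ± 3.75 CPM in MBMEC), Ccng1 (30.3 ± 0.770 CPM in 005 and 472 ± 21.7 CPM in MBMEC) and Phlda3 (8.52 ± 1.65 CPM in 005 and 311 ± 16.2 CPM in MBMEC) fell, and Eda2r had 0.0485 ± 0.0420 CPM in 005 and 101 ± 4.25 CPM in MBMEC. Pmaip1, Sesn1 and Pvt1 were the 3 that rose, with Pmaip1 at 5.67 ± 0.360 CPM in 005 and no counts in MBMEC. Cdkn2a, which encodes p16 and the p53 activator p19Arf, was higher in 005: the libraries had 195, 208 and 256 CPM in 005 and 41.2, 37 and 40.5 CPM in MBMEC (2.47 ± 0.10, adjusted p 1.7e-10). Counts per gene do not tell its 2 products apart, and the state of the Trp53 alleles was not measured.

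Feedback genes of the RAS and ERK pathway had 11 higher and 3 lower of 24 tested (median 0.82). Spry1, an inhibitor of receptor tyrosine kinase signals, had 275, 279 and 369 CPM in 005 and 1.70, 0.943 and 1.79 CPM in MBMEC. Spry2 had 431 ± 50.6 CPM in 005 and 17.8 ± 1.40 CPM in MBMEC, Spry4 had 379.6 ± 23.8 CPM in 005 and 12.8 ± 1.12 CPM in MBMEC, and Spred1 had 362 ± 8.02 CPM in 005 and 76.4 ± 4.79 CPM in MBMEC. The ERK phosphatases were mixed: Dusp4 rose (1.09 ± 0.06, adjusted p 6.82e-09), Dusp5 fell (-1.22 ± 0.14, adjusted p 4.04e-06) and Dusp6 was not called (0.87 ± 0.06). Fosl1, another target of ERK, fell to 5.45, 4.24 and 5.51 CPM in 005, against 149.7, 165 and 169.6 CPM in MBMEC. Hras (57.9 ± 2.05 CPM in 005 and 91.2 ± 5.36 CPM in MBMEC) and Nras were not called, and Akt1 was lower (-1.21 ± 0.05) and Akt2 higher (1.62 ± 0.08).

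**Figure D4:**
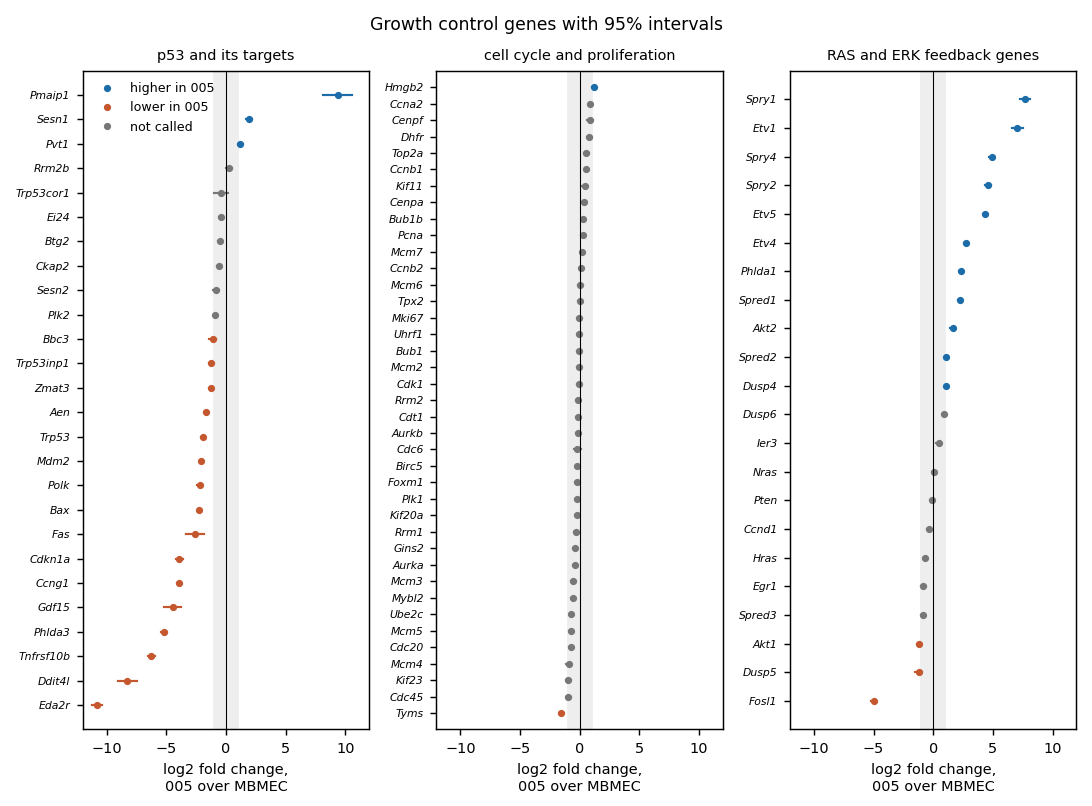
Log2 fold change, 005 minus MBMEC, with its 95% interval for genes of the p53 pathway, of proliferation and of RAS and ERK feedback, coloured by call. Most p53 targets lie left of -1, most proliferation genes lie within the fold of 2, and Spry1 (7.69), Spry4 (4.89) and Spry2 (4.59) lie far to the right.

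The IGF system and imprinted growth genes held wide gaps. Of 13 IGF genes tested, 7 were higher and 5 lower, with a median of 1.58 that rested on few genes and was 0.59, 0.63 and 0.18 without 005 replicate 1, 2 and 3. Igfbp2 and Igfbp5 (125 ± 7.55 CPM in 005 and 0.114 ± 0.144 CPM in MBMEC) were the binding proteins of 005, and Igfbp3 (551 ± 13.9 CPM in 005 and 2079.5 ± 143 CPM in MBMEC) and Igfbp4 (131 ± 15.3 CPM in 005 and 1415 ± 43.4 CPM in MBMEC) those of MBMEC. The adaptors Irs1 (104 ± 2.65 CPM in 005 and 2.67 ± 0.866 CPM in MBMEC) and Irs2 (150.2 ± 3.26 CPM in 005 and 0.374 ± 0.0864 CPM in MBMEC) and the receptor Igf1r (2.14 ± 0.09, adjusted p 1.86e-10) were higher in 005. Igf2 fell, with 5.07 ± 0.916 CPM in 005 and 66.2 ± 7.02 CPM in MBMEC, and Igf1 was too low to test. Igf2r, the receptor that clears IGF2, had 204, 202 and 198 CPM in 005 and 4.09, 4.24 and 3.66 CPM in MBMEC. Grb10, an adaptor that restrains insulin and IGF signals, had 0.0724 ± 0.000717 CPM in 005 and 392 ± 5.45 CPM in MBMEC, 5408-fold (95% counting interval 1850.2 to 26226) higher in MBMEC. Over the 26 imprinted genes, 11 of 19 tested were higher and 2 lower (median 2.55). Peg3 had 175 ± 12.2 CPM in 005 and 0.818 ± 0.0580 CPM in MBMEC and H19 had 21.5 ± 5.04 CPM in 005 and 0.0644 ± 0.0630 CPM in MBMEC, whereas Meg3 had no counts and Rian was near 0. Airn, a transcript that overlaps Igf2r on the other strand, was higher as well (11.8 ± 3.74 CPM in 005 and 0.0644 ± 0.0630 CPM in MBMEC), and since the use of strand in counting was not given, reads of the pair cannot be told apart.

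Interferon response genes were lower in 005 almost throughout, with 26 of 32 tested lower and 1 higher (median -3.10). Bst2, tetherin, had 0.861, 1.10 and 0.507 CPM in 005 and 360.3, 356 and 379 CPM in MBMEC. Trim25, a ubiquitin ligase of the RIG-I pathway, had 0.0239 ± 0.0414 CPM in 005 and 209 ± 10.8 CPM in MBMEC, 8652-fold (95% counting interval 1553 to 341781) higher in MBMEC. Ifitm3 (24.2 ± 1.99 CPM in 005 and 425 ± 45.8 CPM in MBMEC), Xaf1 (0.362 ± 0.00359 CPM in 005 and 96.1 ± 5.65 CPM in MBMEC) and Irf7 (0.941 ± 0.260 CPM in 005 and 15 ± 2.97 CPM in MBMEC) fell, while the regulators Irf1, Irf9 and Stat2 were not called. Cxcl10 was the one that rose, with 3.38 ± 0.411 CPM in 005 and 0.515 ± 0.336 CPM in MBMEC. MHC class I and antigen presentation genes were 15 lower and 1 higher of 23 tested (median -1.37). H2-D1 had 12.2, 10.5 and 14.6 CPM in 005 and 551, 519 and 598 CPM in MBMEC, whereas H2-K1 was low in both and not called (11.7 ± 1.22 CPM in 005 and 9.82 ± 0.981 CPM in MBMEC). B2m, the light chain, fell by less (-1.36 ± 0.07, adjusted p 1.64e-09), and H2-Q4 fell, with 3.32 ± 1.98 CPM in 005 and 43.6 ± 3.19 CPM in MBMEC. MHC genes have near-identical copies, so their counts depend on how reads with several matches were treated, which was not given. Among chemokines and their receptors 11 of 22 tested were lower and 5 higher (median -1.18, or -0.35 with a count minimum of 1 and -0.33 in DESeq2). Cxcl12 had 0.338 ± 0.0392 CPM in 005 and 939 ± 15.4 CPM in MBMEC, Ccl2 had 7.65 ± 1.31 CPM in 005 and 219 ± 5.74 CPM in MBMEC, and Cxcl1 had 2.32 ± 0.339 CPM in 005 and 81.9 ± 6.65 CPM in MBMEC, with Ccl7 lower and Ccl5 not called. Lif (15.5 ± 0.795 CPM in 005 and 0.153 ± 0.134 CPM in MBMEC) and its receptor Lifr (33.9 ± 7.08 CPM in 005 and 0.995 ± 0.0245 CPM in MBMEC) were higher in 005.

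In metabolism the cholesterol pathway leaned to 005. Of 29 cholesterol and lipid genes tested, 21 were higher and 5 lower (median 1.71). Hmgcs1, an early enzyme of cholesterol synthesis, had 473, 471 and 387 CPM in 005 and 94.8, 88.9 and 90.9 CPM in MBMEC (2.28 ± 0.08, adjusted p 5.65e-11). Sqle (442 ± 28.2 CPM in 005 and 95.6 ± 4.55 CPM in MBMEC), a later enzyme, rose too, and the desaturase Scd2 reached 3579.5 ± 125 CPM in 005 and 709.8 ± 24.8 CPM in MBMEC. Those that fell were Abca1, Abcg1, Gpihbp1, Fabp4 and Plin2, which serve lipid efflux, uptake and storage. The medium of 005 had no serum, and medium and cell type cannot be told apart here.

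Glycolysis and hypoxia genes showed no common direction. Of 34 tested, 11 were higher (32.4%) and 9 lower (26.5%), against 25.3% and 18.7% over all genes tested. The median was 0.09, or -0.020 without 005 replicate 3. Isoforms of single enzymes and transporters differed. Slc2a3, the neuronal glucose transporter, had 37.7, 35.6 and 48.8 CPM in the 3 libraries of 005 and no counts in MBMEC, while Slc2a1 was lower. Hk2 rose, with 94.1 ± 7.33 CPM in 005 and 11.7 ± 1.26 CPM in MBMEC, and Hk1 fell, with 184 ± 5.54 CPM in 005 and 421 ± 5.54 CPM in MBMEC. Aldoc was higher in 005, while Aldoa was not called (744 ± 70.2 CPM in 005 and 1397 ± 35.3 CPM in MBMEC). Ldhb had 172, 181 and 182 CPM in 005 and 0.0630, 0 and 0.0690 CPM in MBMEC, and Ldha was abundant in both (530.1 ± 7.86 CPM in 005 and 1007 ± 36.9 CPM in MBMEC) and not called.

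Regulators of splicing and RNA were 16 higher and 5 lower of 29 tested (median 1.45). Ptbp2, the polypyrimidine tract-binding protein of neural precursors, had 118, 120.3 and 103 CPM in 005 and 15.9, 14.5 and 13.7 CPM in MBMEC, and its relatives Ptbp1 (-1.10 ± 0.06, adjusted p 1.38e-09) and Ptbp3 (-2.20 ± 0.08, adjusted p 5.34e-11) fell. Nova1 (78.5 ± 2.56 CPM in 005) and Rbfox1 (3.85 ± 0.986 CPM in 005) were at 0 in MBMEC, Rbfox2 was alike (181 ± 7.33 CPM in 005 and 204 ± 5.06 CPM in MBMEC), Esrp1 had no counts, and Esrp2 was low and not called. Mbnl1 fell (76.2 ± 14.6 CPM in 005 and 473 ± 31.1 CPM in MBMEC) and Qk rose (646 ± 101 CPM in 005 and 236 ± 17 CPM in MBMEC). Chromatin genes were 13 higher and 4 lower of 31 tested (median 0.68). Ezh2, the methyltransferase of polycomb, rose by 1.09 ± 0.08 (adjusted p 6.2e-08) and its relative Ezh1 fell by 1.40 on the log2 scale (adjusted p 8.07e-06), while Eed and Suz12 were not called. Hmga2, an architectural protein, was lower in 005, with 58.3 ± 4.06 CPM in 005 and 563 ± 15.6 CPM in MBMEC.

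Of the listed ion channels and transmitter receptors, 30 of 36 tested were higher and 5 lower (median 7.88, or 5.94 at the bounds). Gria2, an AMPA receptor subunit, had 76.1 ± 7.30 CPM in 005 and no counts in MBMEC, Gria4 had 15.8 ± 1.06 CPM in 005 and 1.6 ± 0.247 CPM in MBMEC, Gria1 was too low to test, and Gria3 fell (-1.56 ± 0.13, adjusted p 1.55e-07). The potassium channel Kcnd3 (323 ± 8.52 CPM in 005 and 0.670 ± 0.317 CPM in MBMEC), the AMPA receptor partner Cacng7 (152 ± 21.8 CPM in 005 and 0.0900 ± 0.106 CPM in MBMEC) and the metabotropic receptor Grm5 (119 ± 15.6 CPM in 005 and no counts in MBMEC) were the most abundant of the risers beside Grik5. Piezo1, the mechanosensitive channel of endothelium, was the reverse: it had 46.3, 45.7 and 43.7 CPM in 005 and 699.8, 688 and 690.0 CPM in MBMEC.

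Many abundant genes had an interval within a fold of 2, which is all that like level means here. The 10 most abundant of them were mt-Co1, Eef1a1, Hsp90ab1, mt-Cytb, Eef2, Actb, Ccnd1, mt-Nd1, Fth1 and Rps2. Except for Eef2, their groups did not overlap, as for 81.3% of all genes tested, and mt-Co1 was 1.6-fold higher in 005. Eef1a1 had 7405 ± 201 CPM in 005 and 8247 ± 87.2 CPM in MBMEC (95% interval -0.26 to -0.05) and Actb had 2318 ± 41.2 CPM in 005 and 3605 ± 53.3 CPM in MBMEC (-0.75 to -0.53). Ribosomal protein genes were 4 lower and 26 not called of 30 (median -0.38, or -0.17 with plain totals, where none was called lower), with Rpl3, Rpl4, Rpl5 and Rpl7 all within a fold of 2. Of 28 genes often used as internal standards, 7 were lower and none higher (median -0.57, or -0.36 with plain totals, where 2 were called lower). Hprt (-0.63 ± 0.07) was not called, B2m was lower, and Gapdh was called lower only through one library: 005 had 29.9, 32.3 and 46.6 CPM and MBMEC had 48, 148 and 48.2 CPM, and without MBMEC replicate 2 the change was -0.42 and not called. Gapdh has many near-identical copies, and how reads with several matches were counted was not given. Mitochondrially encoded genes were 1 higher and none lower of 11 tested (median 0.26, which became -0.037 with a count minimum of 1 and -0.019 in DESeq2). mt-Nd1, mt-Nd2 and mt-Co1 were abundant and not called, while mt-Co2 had only 20.9 ± 1.67 CPM in 005 and 33.3 ± 7.70 CPM in MBMEC. All genes of the mitochondrial genome, with those outside the list, took 2.36% ± 0.299 of the counts in 005 and 1.53% ± 0.107 in MBMEC. Of the 20 tested in this wider set, 1 was higher and 3 were lower.

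Markers of cell types that could be mixed in were taken as lists, and the part of such cells in the results was not tested. The summed level of the mural list was 172 to 209.5 CPM in 005 and 177 to 183 CPM in MBMEC, that of the leukocyte list 45.4 to 49.6 CPM in 005 and 156 to 175 CPM in MBMEC, and that of the fibroblast list 705 to 729 CPM in 005 and 1725 to 2046 CPM in MBMEC. Some of these sums came mostly from few genes: Cspg4 and Notch3 (mural, 005), Cd68 (leukocyte, MBMEC) and Fn1 (fibroblast, MBMEC). Of 20 mural and smooth muscle genes 12 were too low to test, 3 were higher and 4 lower (median -1.27, which became 1.74 with a count minimum of 1, 1.64 in DESeq2 and 3.20 with all 15 libraries in the fit). Pdgfrb had 0.265 ± 0.109 CPM in 005 and 1.69 ± 0.254 CPM in MBMEC, Rgs5 and Kcnj8 were under 1 CPM in 005 and at 0 in MBMEC, and Cspg4 is also a gene of oligodendrocyte progenitors. Of 25 leukocyte genes 20 were too low to test and 3 were lower (median -1.75, or -3.16 to -2.63 without any one 005 library or MBMEC replicate 2, -0.90 with a count minimum of 1, -0.70 in DESeq2 and -0.55 with all 15 libraries, where 2 were called higher), with Ptprc, Aif1, Cx3cr1 and P2ry12 all under 1 CPM in both groups, and Cd68 at 4.64 ± 0.879 CPM in 005 and 99.8 ± 6.95 CPM in MBMEC. Of 25 fibroblast genes 9 of 14 tested were higher in 005 and 3 lower (median 2.95, or 2.31 with a count minimum of 1, 1.83 in DESeq2 and 4.23 with all 15 libraries). Prrx1 (289 ± 10.7 CPM in 005 and 4.67 ± 0.151 CPM in MBMEC) and Fbln1 (73.6 ± 6.01 CPM in 005 and no counts in MBMEC) led those that rose, Fn1 fell (96.6 ± 20.7 CPM in 005 and 1578 ± 155 CPM in MBMEC), and Dcn and Lum were under 1 CPM in 005 and at 0 in MBMEC. Sex chromosome genes were alike in kind: Xist and Tsix were at or near 0 in both cell types, and the Y genes were expressed in both. Ddx3y had 20.4 ± 2.92 CPM in 005 and 152 ± 11.4 CPM in MBMEC and Eif2s3y had 20.9 ± 1.84 CPM in 005 and 80.1 ± 1.06 CPM in MBMEC. The 4 Y genes Ddx3y, Eif2s3y, Kdm5d and Uty were all lower in 005, with changes of -2.90 to -1.83.

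Looking along the genome, genes of 2 autosomes were shifted as a whole, a view taken after the values were seen. Over the 8744 genes with at least 10 CPM in both groups, the median change was -0.04. On chromosome 14 it was 0.74 over 282 genes, of which 85.5% were above 0. On chromosome 16 it was -0.88 over 271 genes, of which 11.4% were above 0. The other autosomes and X had medians of -0.34 (chromosome 19) to 0.23 (chromosome 3), and the 3 genes of this level on Y had a median of -1.94. The shift ran along the length of both chromosomes: in windows of 20 megabases, the 7 of chromosome 14 (8 to 92 genes each) had medians of 0.61 to 1.07, and the 5 of chromosome 16 (11 to 90 genes each) had medians of -0.92 to -0.67. It was present in each library of 005 taken against the MBMEC mean, at 0.68 to 0.77 for chromosome 14 and -0.91 to -0.82 for chromosome 16. Over genes not called the medians were 0.57 and -0.63. Chromosome 16 carries Erg, Ets2 and Cldn5, which were lower in 005 as its median was. It also carries Olig2, which was at 0 in MBMEC and went against that median. Copy number was not measured in these libraries.

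**Figure D5:**
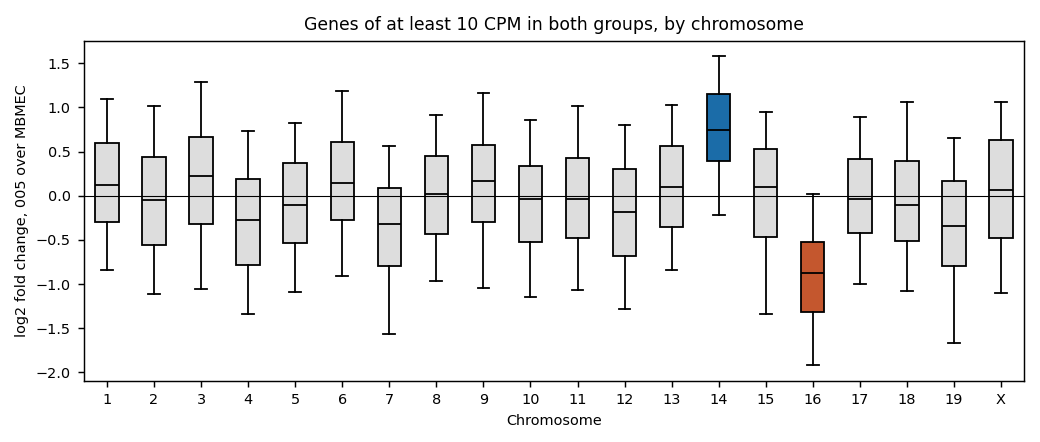
Log2 fold change, 005 minus MBMEC, of genes with at least 10 CPM in both groups, by chromosome (box from the 25th to the 75th percentile, line at the median, whiskers at the 10th and 90th). The autosomes and X are drawn, without Y and the mitochondrial genome. Chromosome 14 (median 0.74) sits above and chromosome 16 (median -0.88) below the others drawn, whose medians run from -0.34 to 0.23.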

How the data were processed

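The 6 libraries were made with poly(A) selection and a strand-specific kit and sequenced on an Illumina NovaSeq instrument. The authors deposited raw counts per gene for all 15 libraries of the series in one table. Alignment to mm10 with HISAT2 2.1.0, trimming with Trimmomatic 0.38, counting with featureCounts 1.6.3 and bcl2fastq 2.19 are named in the submitters' processing notes. The annotation release, the strand setting and the treatment of reads with several matches are not given in the sources used here. Each column was tied to its sample by its name, and genes went by the symbols of the deposited table.

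Genes were kept by filterByExpr with a count minimum of 10, scaled by TMM and tested with edgeR 4.0.16 (R 4.3.3, limma 3.58.1) on the 6 libraries by group, with p-values adjusted by Benjamini-Hochberg over all 15992 genes. Standard errors were taken as the change over the square root of F, and 95% intervals from the t distribution. Alternatives were other scalings, a block on replicate numbers, a count minimum of 1, DESeq2 1.42.0, all 15 libraries, a test against a fold of 2, equal depth and each library left out.

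The gene lists, and the choice of what to describe, were made with earlier results of these data known. Named genes are members of lists whose count is given, with the first 4 of each list among them (some members are not reported here), the 15 largest rises and falls of at least 10 CPM without predicted genes, the 10 most abundant of like level, and genes the study named. The promoters shown and the view by chromosome were chosen after the values were seen. Correlations of deviations from the group mean were -0.0093 to 0.096 for libraries with the same replicate number. They were -0.123 to 0.068 for those with different numbers. With 3 libraries a group, these values cannot show whether the numbers pair libraries, and the main fit used no pairing. The scripts were tested on simulated data. No pair of libraries agreed within sampling noise.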

Additional observations from a re-analysis of the deposited data

How the results depend on the processing

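Counts of genes higher and lower in 005 (4048 and 2983) were 4644 and 2581 with plain totals, 5238 and 3642 with a count minimum of 1, 4817 and 3330 in DESeq2, 3475 and 2536 against a fold of 2, 4575 and 2984 with all 15 libraries and 4147 to 4246 and 2972 to 3192 with one library left out. With the adjusted p alone they were 6857 and 5894. With a block on replicate numbers they were 4030 and 2985, and 7001 of the 7031 calls were kept. No call changed sign in any alternative run. Of 1068 named genes, 34 lost their call outside the test against a fold of 2, and 46 under it, while 32 gained one outside the setting of the adjusted p alone (20 of them with plain totals). The medians of some lists changed side. For mural genes the median (-1.27) was 1.74 with a count minimum of 1, 1.64 in DESeq2 and 3.20 with all 15 libraries, for ETS genes (-0.22) it was 0.11 and 0.15 in the first 2 of these, and for mitochondrially encoded genes (0.26) -0.037 and -0.019. For proliferation genes it was 0.10 with plain totals, and for hypoxia and glycolysis genes it ran from -0.020 to 0.15 with a library left out. Settings that change which low genes are tested moved other medians without changing their side, as given beside them. Low counts limit the folds of genes near 0, for which bounds or counting intervals are given. The chromosome medians, an alternative set added after the data were seen, ran from 0.72 to 0.95 for chromosome 14 and from -0.90 to -0.66 for chromosome 16.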

Other observations

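Immediate early genes, which answer within minutes to growth factors, stress and handling, were 13 lower and 2 higher in 005 among 26 tested (median -1.24). Fosb had 2.71 ± 0.737 CPM in 005 and 12.8 ± 2.34 CPM in MBMEC, and Fosl1 and Fosl2 (33.5 ± 3.39 CPM in 005 and 244 ± 4.17 CPM in MBMEC) were lower too, while Fos was not called. The YAP targets Cyr61 (10.3 ± 2.0 CPM in 005 and 277 ± 32.8 CPM in MBMEC) and Ctgf (0.144 ± 0.143 CPM in 005 and 85.4 ± 7.53 CPM in MBMEC) and the prostaglandin synthase Ptgs2 (1.81 ± 0.127 CPM in 005 and 56.8 ± 7.45 CPM in MBMEC) fell. Egr2 (4.76 ± 0.462 CPM in 005 and 0.370 ± 0.182 CPM in MBMEC) and Myc were the 2 that rose.

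Proteases and their inhibitors were 14 lower and 7 higher among 27 tested (median -1.12). Plau, urokinase, had 6.38 ± 1.70 CPM in 005 and 732 ± 11.8 CPM in MBMEC, and its receptor Plaur had 2.82 ± 0.946 CPM in 005 and 137 ± 5.70 CPM in MBMEC, whereas the related activator Plat was higher in 005 (74.8 ± 4.50 CPM in 005 and 21 ± 0.905 CPM in MBMEC). Serpine2, an inhibitor of thrombin and urokinase, had 942 ± 8.71 CPM in 005 and 0.0644 ± 0.0630 CPM in MBMEC. Of the metalloproteinases, Mmp2 (6.40 ± 0.889 CPM in 005 and 19.7 ± 4.09 CPM in MBMEC) and Mmp3 (0.0481 ± 0.0416 CPM in 005 and 39.5 ± 2.25 CPM in MBMEC) were lower, Mmp15 (421 ± 18.5 CPM in 005 and 84.2 ± 5.77 CPM in MBMEC) and Mmp17 (58.2 ± 13.9 CPM in 005 and 0.223 ± 0.109 CPM in MBMEC) were higher, and Mmp9 and Mmp10 were too low to test. Timp2 (147 ± 13.1 CPM in 005 and 971 ± 18.7 CPM in MBMEC) and Timp3 (27.4 ± 0.332 CPM in 005 and 722 ± 14.8 CPM in MBMEC) were lower and Timp4 higher (19.2 ± 0.818 CPM in 005 and 0.593 ± 0.144 CPM in MBMEC).

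Retinoic acid genes were 5 lower and 2 higher among 12 tested (median -0.80). The enzyme that makes retinoic acid was exchanged: Aldh1a3 had 47.2 ± 6.13 CPM in 005 and no counts in MBMEC and Aldh1a1 had 0.340 ± 0.294 CPM in 005 and 82.6 ± 7.37 CPM in MBMEC. Rarg fell (21.5 ± 2.98 CPM in 005 and 101 ± 2.33 CPM in MBMEC), Rara and Rxra were not called, and Rarb was too low to test.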
